A study of Mus musculus with 39 samples.

Results

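The genes described here are 10 textbook transcriptional targets of p53: Cdkn1a, Mdm2, Ccng1, Bax, Trp53inp1, Phlda3, Gdf15, Sesn2, Bbc3 and Perp. They were followed in mouse testis, either kept as an organ culture or left in the animal. A gene counted as measured where a probe carrying its symbol had a detection p below 0.01 on 3 or more arrays, and 7 of the 10 met this. Perp had 1 probe, which was detected on 0 of 38 arrays, and Bax and Gdf15 are not analysed here because no probe carried their symbol in the platform table used. The 7 measured genes are among 12518 genes with such a probe.

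Total RNA of testes was hybridised to Illumina bead arrays. The culture groups were testes of 7.5 days post partum (dpp) kept as organ cultures for 2, 4, 6, 7, 9 or 14 days. The in vivo groups were testes taken directly at 7.5, 9.5, 11.5, 13.5, 14.5, 16.5 or 21.5 dpp, so each culture time has an in vivo group of the same age, and 7.5 dpp is the start of the culture. Each of the 13 groups has 3 samples, of which only 2 arrays could be used for in vivo 13.5 dpp. The labels give no strain, genotype, medium or agent, and name no separate animals or cultures within a group. The p-values therefore measure only the spread between these samples, which may be technical.

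The protein p53 is a transcription factor held at a low level because MDM2, the product of one of its own targets, marks it for degradation. DNA damage, loss of growth signals and other stresses interrupt this loop, and p53 then activates genes that stop the cell cycle (Cdkn1a), damp the response (Mdm2, Ccng1), adjust metabolism and oxidant defence (Sesn2, Trp53inp1) or promote cell death (Bbc3, Phlda3). In the testis, p53 is known for its part in the loss of damaged germ cells. Transcripts of these genes are also set by other factors, so their levels are not a direct measure of p53.

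The promoters of Cdkn1a and Ccng1 are shown because they hold a p53 element near the start of transcription. The element searched was 2 adjoining decamers of the p53 consensus with no spacer, 20 bases in all, which reads the same on both strands. Windows of 250 bases before to 50 after the start of each gene came from RefSeq (GRCm38.p6), and 6 of the 7 measured genes had 9 windows in all. A limit of 1 mismatch was set after the windows had been seen. Within it, 2 of the 9 windows held the element, against 29 of the 32851 windows in the whole table (0.0883%). The other 7 windows of measured genes had 3 to 6 mismatches at best, and Trp53inp1 had no window in the table. The stretch shown for Cdkn1a is chr17:29090729-29090978 on the + strand and that for Ccng1 is chr11:40755287-40755536 on the - strand. Both run 5′ to 3′ over the 250 bases before the start, with the element in capitals.
Cdkn1a: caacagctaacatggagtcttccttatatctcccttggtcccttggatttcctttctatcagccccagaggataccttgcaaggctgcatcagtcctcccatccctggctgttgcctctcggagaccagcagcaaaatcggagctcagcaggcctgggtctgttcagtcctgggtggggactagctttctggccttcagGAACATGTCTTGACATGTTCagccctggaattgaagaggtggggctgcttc
Ccng1: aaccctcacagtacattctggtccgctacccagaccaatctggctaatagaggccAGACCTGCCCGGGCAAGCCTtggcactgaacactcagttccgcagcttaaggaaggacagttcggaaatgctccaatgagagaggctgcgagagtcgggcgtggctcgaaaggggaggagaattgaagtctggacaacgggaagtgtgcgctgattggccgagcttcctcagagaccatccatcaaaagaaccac
The element began 51 bases before the start in Cdkn1a and 195 bases before it in Ccng1. The window of Cdkn1a belongs to the upstream one of its 2 starts, which lie 2790 bases apart, and the window of the other start had 5 mismatches at best. A match is a description of the sequence and says nothing of whether p53 was bound in these testes.

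Each array detected 35.6% to 43.9% of its probes, the mean signal lay between 368 and 789, and the lowest correlation between 2 arrays of a group was 0.933. The lowest detected share belonged to replicate 2 of in vivo 9.5 dpp, and the 3 arrays of culture day 7 had mean signals of 368 to 437. The summed signal of 8 measured Sertoli cell markers was 18665 or more, on the linear scale of the normalized values, on every array of every group except in vivo 21.5 dpp, where it was 15054 to 23531. The summed signal of 8 measured spermatid markers was 262 to 379 in culture day 14, against 11778 to 19999 in vivo at 21.5 dpp, and Prm1, Tnp1, Tssk6, Akap4 and Gapdhs were not detected on any array of culture day 14. The cells held by the tissue thus differed between groups, and in bulk RNA fewer cells of a type and less RNA per cell cannot be told apart.

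Values below are log2 values after background correction and quantile normalization, from the brightest probe of each gene, and these 7 probes were detected on all 38 arrays. Differences are given with the standard error of the limma fit. A call needed a Benjamini-Hochberg adjusted p below 0.05, adjusted over the 12518 genes, together with a change of 2-fold or more, which is 1 on the log2 scale.

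The 7 genes did not move as a block. Over the 6 matched ages, 5 of 42 pairs of a gene and an age were called higher in culture and 2 were called lower. The calls came from Ccng1, Phlda3 and Bbc3 only, and 14 of the 42 pairs had an adjusted p below 0.05 when no minimum fold was asked for, against 27.9% of such pairs over all genes. By that rule 2, 2, 0, 3, 2 and 5 of the 7 members passed at 9.5, 11.5, 13.5, 14.5, 16.5 and 21.5 dpp, where 22.8%, 20.7%, 12.9%, 29.3%, 21.2% and 60.4% of all genes did. At 9.5 dpp Ccng1 was called lower and no member higher, where 4.64% of all genes were called higher and 3.94% lower. At 11.5 dpp Ccng1 was again the 1 member called, and lower, against 3.91% higher and 3.95% lower over all genes. None was called at 13.5 dpp, against 4.03% higher and 2.66% lower, nor at 16.5 dpp, against 5.16% higher and 3.15% lower. At 14.5 dpp Phlda3 and Bbc3 were called higher, against 5.52% of all genes higher and 5.71% lower. At 21.5 dpp Ccng1, Phlda3 and Bbc3 were called higher, where 19.9% of all genes were called higher and 15.9% lower, so that calls were common at this age whatever the gene. The authors' log2 values, which hold 3 in vivo samples of 13.5 dpp, also gave 0 calls among the members at that age.

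The split of the calls over all genes depended on the scaling. Higher genes made up 54.1%, 49.7%, 60.2%, 49.1%, 62.1% and 55.6% of the calls at 9.5, 11.5, 13.5, 14.5, 16.5 and 21.5 dpp. With median centring in place of quantile normalization these shares were 67.5%, 55.3%, 23.5%, 14.0%, 48.6% and 62.6%, and with the authors' deposited log2 values 66.9%, 61.2%, 71.1%, 42.9%, 74.5% and 43.4%. Median centring moved the median difference of all genes to -0.35 at 13.5 dpp and -0.27 at 14.5 dpp, where it was -0.06 and 0.01 with quantile normalization, so differences of culture day 6 and day 7 are the ones most open to the scaling.

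**Figure D1:**
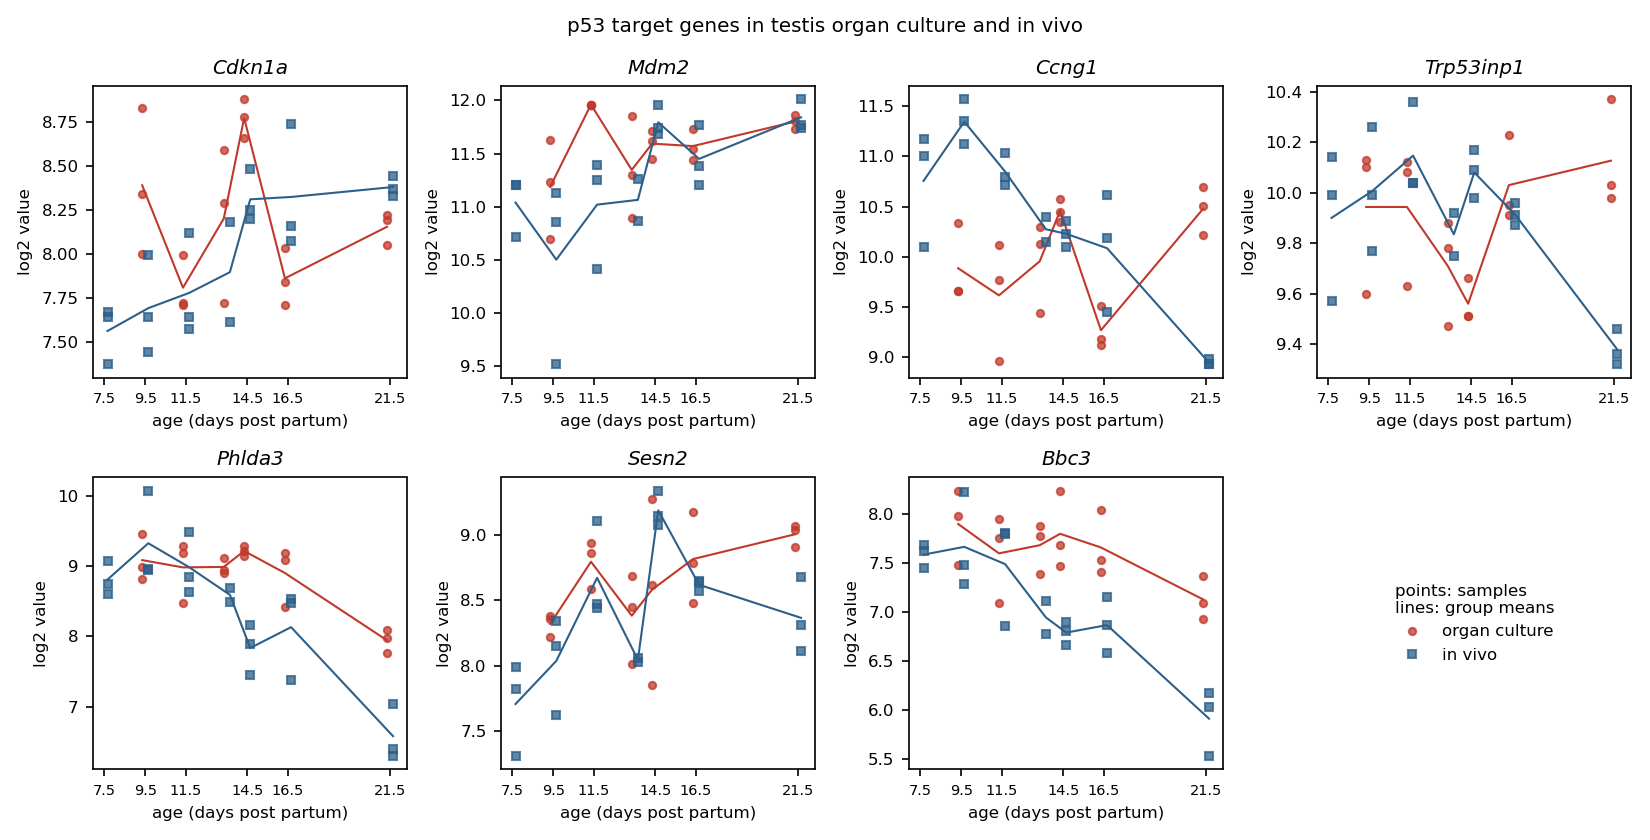
Log2 value of the 7 measured p53 target genes in every sample (points) and as group means (lines) against age in days post partum, for organ culture (red circles) and in vivo (blue squares). In vivo, Ccng1, Trp53inp1, Phlda3 and Bbc3 are lowest at 21.5 dpp, where all samples of culture day 14 lie above them.

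Ccng1, which encodes cyclin G1, a partner of the phosphatase PP2A in restraining p53, was the member with the widest swing between culture and animal. It was lower in culture at the first 2 matched ages and higher at the last. At 9.5 dpp it had 10.34, 9.66 and 9.66 in culture day 2, against 11.12, 11.57 and 11.35 in vivo, a difference of -1.46 ± 0.28, or 2.74-fold (adjusted p = 0.00033). At 11.5 dpp it had 10.12, 9.77 and 8.96 in culture day 4, against 11.03, 10.80 and 10.72 in vivo, a difference of -1.23 ± 0.28, or 2.35-fold (adjusted p = 0.00228). No sample of culture overlapped with in vivo at either age. Without replicate 3 of culture day 4, the lowest of its group, the second difference was -0.90 (adjusted p = 0.0299) and was no longer 2-fold, and with the mean of all kept probes it was -0.73 (adjusted p = 0.0239).

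The summed signal of the 8 measured macrophage markers was 296 to 472 in culture day 2, against 2848 to 6005 in vivo at 9.5 dpp, with Adgre1, C1qa, C1qb, C1qc and F13a1 detected on no array of culture day 2. The 5 measured erythrocyte markers summed to 10868 to 13487 in culture day 2, against 31585 to 97861 in vivo. In culture day 4 the replicate that was lowest in Ccng1 had macrophage and meiotic marker sums of 10303 and 21896, where the other replicates had 548 and 1336 for macrophages and 2846 and 4069 for meiotic cells. The part of these cells in the Ccng1 differences was not tested.

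At the intermediate ages Ccng1 differed by -0.31 ± 0.31 at 13.5 dpp, 0.23 ± 0.28 at 14.5 dpp and -0.82 ± 0.28 at 16.5 dpp (adjusted p = 0.584, 0.572 and 0.0354), none of them 2-fold. At 16.5 dpp the in vivo samples had 10.62, 10.19 and 9.45, with meiotic marker sums of 27929, 5703 and 68314 in the same order. Without the lowest sample, which had the highest sum, the difference was -1.13 (adjusted p = 0.0092). In culture day 9 the sample lowest in Ccng1, at 9.12, instead had the lowest meiotic sum, 3495 against 22325 and 16310. The part of meiotic cells in these values was not tested. At 21.5 dpp Ccng1 had 10.70, 10.51 and 10.22 in culture day 14, against 8.93, 8.98 and 8.93 in vivo, a difference of 1.53 ± 0.28, or 2.89-fold (adjusted p = 2.44e-05). The in vivo level of this age was the lowest of all 13 groups and lay below every sample of the next group, culture day 9, although 1 sample of culture day 4 had 8.96.

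Mdm2, which encodes the ubiquitin ligase that removes p53, was not called at any matched age. At 11.5 dpp it had 11.96 in each of the 3 samples of culture day 4, against 10.42, 11.25 and 11.39 in vivo, a difference of 0.94 ± 0.29 (adjusted p = 0.0196) with no overlap but less than 2-fold. Leaving out replicate 2 or 3 of in vivo 11.5 dpp carried it past 2-fold, to 1.05 and 1.12 (adjusted p = 0.0217 and 0.0145). At the other ages the differences ran from -0.21 to 0.68. The value of 9.52 in replicate 2 of in vivo 9.5 dpp was the lowest of all arrays, and it lay beside 10.86 and 11.13 in the other replicates. That array also had the lowest detected share of the series, 35.6%.

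Cdkn1a encodes p21, the inhibitor of cyclin-dependent kinases through which p53 arrests the cell cycle. It was not called at any matched age. At 9.5 dpp it had 8.34, 8.0 and 8.83 in culture day 2, against 7.64, 7.99 and 7.44 in vivo, so that the groups did not overlap and differed by 0.70 ± 0.22 (adjusted p = 0.0231), or 1.62-fold. At 14.5 dpp it had 8.88, 8.78 and 8.66 in culture day 7, the highest mean of the 13 groups, against 8.25, 8.48 and 8.20 in vivo, a difference of 0.46 ± 0.22 (adjusted p = 0.118). At the last 2 ages the difference had the other sign, -0.46 ± 0.22 at 16.5 dpp and -0.23 ± 0.22 at 21.5 dpp (adjusted p = 0.145 and 0.395). At 21.5 dpp the values were 8.05, 8.19 and 8.22 in culture day 14, against 8.44, 8.33 and 8.37 in vivo.

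Bbc3, which encodes PUMA, a BH3-only protein that opens the mitochondrial route to apoptosis, had a higher mean in culture at 6 of 6 matched ages, by 0.11 to 1.22. It was called at 2 of them. At 14.5 dpp it had 7.69, 8.24 and 7.47 in culture day 7, against 6.81, 6.90 and 6.66 in vivo, a difference of 1.01 ± 0.29 (adjusted p = 0.00869). This difference is at the edge of the 2-fold rule: it was 0.79 (adjusted p = 0.0697) without replicate 2 of culture day 7, 0.95 (adjusted p = 0.0396) without replicate 3 of in vivo 14.5 dpp, and 0.56 (adjusted p = 0.158) with median centring. It was also below 2-fold in the authors' log2 values (0.46), with the mean of all kept probes (0.57) and without background correction (0.76). The neighbouring ages had smaller differences in the same direction: 0.74 ± 0.32 at 13.5 dpp, with 7.88, 7.78 and 7.39 in culture day 6, against 7.11 and 6.78 in vivo (adjusted p = 0.131), and 0.80 ± 0.29 at 16.5 dpp, with 7.41, 7.53 and 8.04 in culture day 9, against 6.87, 7.15 and 6.58 in vivo (adjusted p = 0.0443). Samples overlapped at neither of these ages.

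At 21.5 dpp Bbc3 had 7.37, 6.93 and 7.09 in culture day 14, against 6.03, 6.17 and 5.53 in vivo, a difference of 1.22 ± 0.29, or 2.32-fold (adjusted p = 0.000512). It was below 2-fold in the authors' log2 values (0.38), with the mean of all kept probes (0.56) and without background correction (0.78), with adjusted p = 0.0136, 0.0173 and 0.00272. The in vivo samples of 21.5 dpp were the lowest of all groups and overlapped with none. Their signals before normalization were low, at 117, 118 and 95.3. The last had a detection p of 0.00855, close to the limit of 0.01.

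Phlda3, a pleckstrin homology protein that competes with the kinase AKT for membrane lipids, was called at the same 2 ages as Bbc3. At 14.5 dpp it had 9.21, 9.29 and 9.14 in culture day 7, against 7.45, 8.16 and 7.89 in vivo, a difference of 1.38 ± 0.31, or 2.60-fold (adjusted p = 0.00139). It was below 2-fold with median centring (0.96), in the authors' log2 values (0.91) and with the mean of all kept probes (0.75), with adjusted p = 0.0114, 0.00161 and 0.0161. At 21.5 dpp it had 7.76, 7.98 and 8.09 in culture day 14, against 6.40, 6.30 and 7.04 in vivo, a difference of 1.36 ± 0.31, or 2.58-fold (adjusted p = 0.000333), against 0.59 (adjusted p = 0.0146) in the authors' log2 values. Groups did not overlap at either age. At 16.5 dpp it had 9.09, 8.42 and 9.19 in culture day 9, against 8.48, 8.53 and 7.38 in vivo, a difference of 0.77 ± 0.31 (adjusted p = 0.0732), and the lowest in vivo sample was again the one with the highest meiotic marker sum. Without that sample the difference was 0.39 (adjusted p = 0.476), and without replicate 2 of culture day 9 it was 1.01 (adjusted p = 0.0297). At 13.5 dpp it was 0.40 ± 0.34 (adjusted p = 0.514). Before 13.5 dpp Phlda3 differed by -0.24 ± 0.31 and 0.00 ± 0.31 (adjusted p = 0.612 and 0.995).

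Marker sums of several cell types also differed between culture and in vivo at 14.5 dpp. The endothelial marker sum was 5506 to 7997 in culture day 7, against 1372 to 1572 in vivo, and the meiotic marker sum was 2904 to 7857, against 23100 to 35450. The Leydig cell sum was 765 to 1384, against 2451 to 5988, and the erythrocyte sum 178 to 579, against 14338 to 25196. The endothelial sum was also higher in culture days 2 and 4, at 4770 to 6254 and 6358 to 8500, against 1997 to 2988 and 1739 to 2449 in vivo at the same ages. In culture days 6 and 9 it was 7931 to 9007 and 6620 to 10365, against 1889 to 1964 and 1134 to 1739. In culture day 14 it was 901 to 2237, against 970 to 1166 in vivo at 21.5 dpp. The part of these cells in the Phlda3 and Bbc3 differences was not tested.

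Over the 13 group means Phlda3 and Bbc3 had a Pearson correlation of 0.95, and of 0.88 over the 12 groups without in vivo 21.5 dpp, with each point of both genes coming from the same arrays. The next highest pair over the 13 groups was Mdm2 and Sesn2, with 0.71, and 0.78 over the 12 groups. Cdkn1a and Mdm2, 2 of the best known targets, had 0.48, and Mdm2 and Ccng1 had -0.69.

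**Figure D2:**
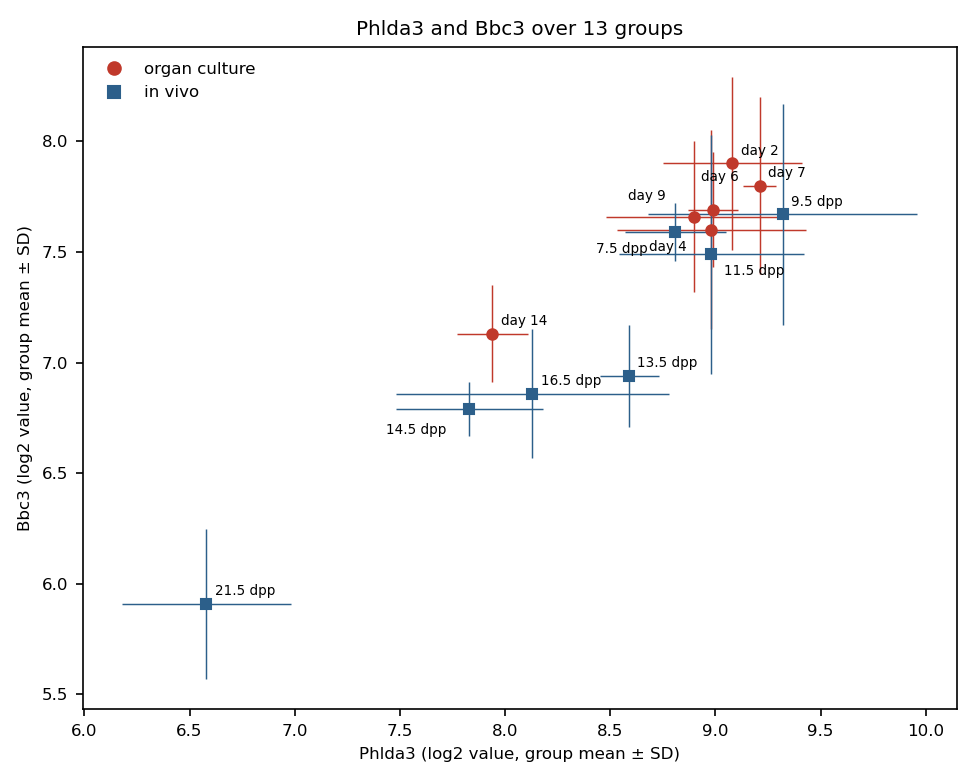
Group means of Phlda3 (x axis) and Bbc3 (y axis) in log2 values with the SD over samples, for organ culture (red circles) and in vivo (blue squares). The in vivo group of 21.5 dpp lies lowest for both genes, and the cultures of days 2 to 9 lie at the upper right together with in vivo 7.5, 9.5 and 11.5 dpp.

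Sesn2 encodes sestrin 2, which restrains mTORC1 and supports oxidant defence. It had a higher mean in culture at 5 of 6 ages but was not called at any. At 21.5 dpp it had 9.07, 9.04 and 8.91 in culture day 14, against 8.31, 8.11 and 8.68 in vivo, a difference of 0.64 ± 0.26 (adjusted p = 0.0346) without overlap. At 14.5 dpp the values of culture day 7 were widely spread, 9.28, 7.85 and 8.62, against 9.15, 9.34 and 9.08 in vivo, and the difference was -0.61 ± 0.26 (adjusted p = 0.0783). With median centring this difference was -1.0 (adjusted p = 0.0137), so that Sesn2 was then called lower, and was the single member called at that age.

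Trp53inp1, a nuclear protein with roles in p53-dependent death and in autophagy, had the narrowest range of the members, 0.77 between the highest and the lowest of the 13 group means. At 14.5 dpp it had 9.51, 9.66 and 9.51 in culture day 7, against 10.09, 9.98 and 10.17 in vivo, a difference of -0.52 ± 0.17 (adjusted p = 0.0212). At 21.5 dpp the sign was the other way, with 10.37, 9.98 and 10.03 in culture day 14, against 9.32, 9.46 and 9.36 in vivo, a difference of 0.75 ± 0.17 (adjusted p = 0.000347). Neither was 2-fold, and neither pair of groups overlapped.

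**Figure D3:**
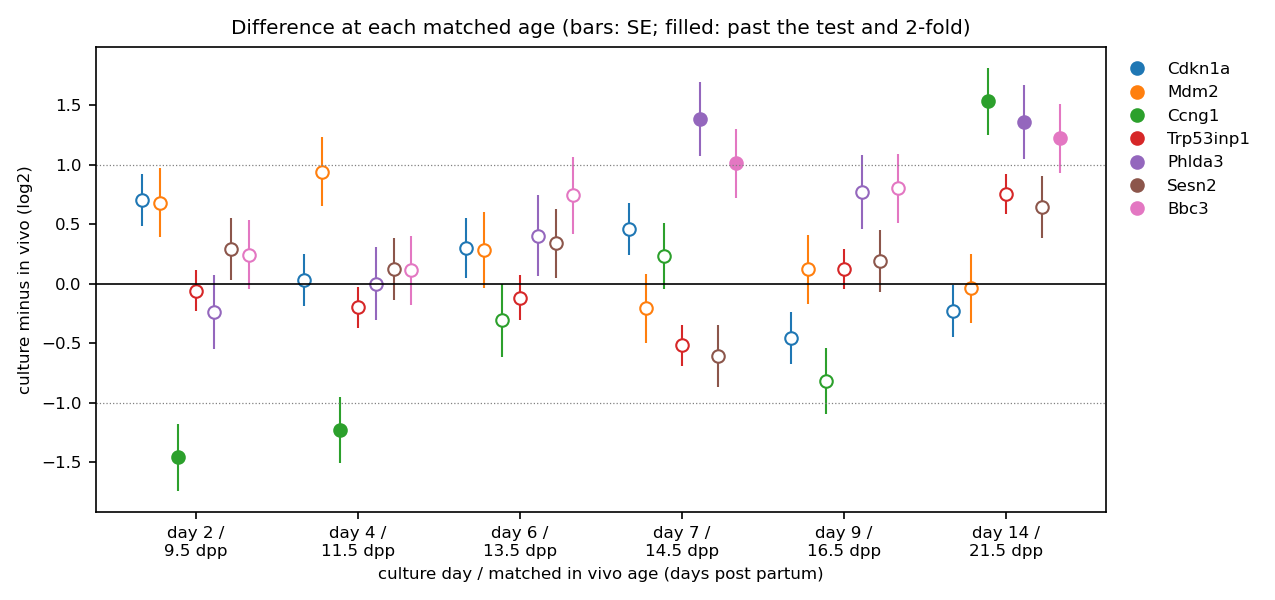
Difference between organ culture and in vivo in log2 units (y axis, bars are standard errors) at the 6 matched ages (x axis) for the 7 measured p53 target genes. Filled points were called, at an adjusted p below 0.05 and at least 2-fold; Ccng1 lies at -1.46 at 9.5 dpp and at 1.53 at 21.5 dpp.

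For 6 of the 7 members the group means spanned less in culture than in vivo, over 6 culture times and 7 in vivo ages. How many of all genes did so is not given here, so the count only describes these 7. The span between the highest and the lowest group mean was 1.27 in culture and 2.74 in vivo for Phlda3, 1.21 and 2.40 for Ccng1, 0.77 and 1.75 for Bbc3, 0.68 and 1.49 for Sesn2, 0.77 and 1.33 for Mdm2, and 0.57 and 0.77 for Trp53inp1. Cdkn1a was the exception, with 0.97 in culture and 0.82 in vivo. With the 13 group means of a gene put in order, most neighbours overlapped: of 12 neighbouring pairs, all samples lay apart in 2 pairs for Ccng1 and for Sesn2, in 1 pair for Phlda3, Bbc3 and Trp53inp1, and in 0 pairs for Cdkn1a and Mdm2. The same counts over all genes are not given here, so overlap is not read as a trait of the members.

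Averaged over the 6 matched ages, no member differed 2-fold, against 3.41% of all genes called higher and 2.37% lower. Higher genes made up 59% of those calls, against 49.9% after median centring and 83.2% in the authors' log2 values. Bbc3 had a mean difference of 0.69 ± 0.12 (adjusted p = 1.25e-05) and Phlda3 one of 0.61 ± 0.13 (adjusted p = 0.000151). Mdm2 had 0.30 ± 0.12 (adjusted p = 0.0324) and Ccng1 -0.34 ± 0.12 (adjusted p = 0.012), in the second case an average of differences of opposite sign. Cdkn1a had 0.13 ± 0.09, Sesn2 0.16 ± 0.11 and Trp53inp1 -0.01 ± 0.07 (adjusted p = 0.212, 0.195 and 0.94). With no minimum fold 4 of the 7 members passed in this mean, where 61.8% of all genes did.

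The culture difference at 21.5 dpp was set against that at 9.5 dpp within the same fit, to ask which genes changed their response to culture between the first and the last time. Over all genes 21.3% were called with a higher and 16.7% with a lower difference at the later age. Among the members, 2 were called, both higher: Ccng1 by 2.99 ± 0.39 (adjusted p = 3.37e-07) and Phlda3 by 1.61 ± 0.43 (adjusted p = 0.00297), the second at 0.79 (adjusted p = 0.0243) in the authors' log2 values. Bbc3 had 0.98 ± 0.40 and Trp53inp1 0.81 ± 0.24 (adjusted p = 0.0426 and 0.0059), both less than 2-fold. Cdkn1a had the other sign, at -0.93 ± 0.32 (adjusted p = 0.0158). The values for Mdm2 and Sesn2 were -0.72 ± 0.41 and 0.36 ± 0.37 (adjusted p = 0.139 and 0.436). With no minimum fold 5 of the 7 passed, where 50.9% of all genes did.

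In vivo, Sesn2, Cdkn1a and Mdm2 had higher means at 14.5 dpp, and Ccng1, Phlda3 and Bbc3 had lower ones, than at 7.5 dpp. Between 7.5 and 14.5 dpp, the period in which the first germ cells enter meiosis, 1 member was called higher and none lower, against 7.41% of all genes higher and 6.88% lower. This was Sesn2, with 9.15, 9.34 and 9.08 at 14.5 dpp, against 7.31, 7.99 and 7.82 at 7.5 dpp, a difference of 1.49 ± 0.26, or 2.80-fold (adjusted p = 6.97e-05), against 0.96 (adjusted p = 9.37e-05) in the authors' log2 values. Its mean at 14.5 dpp was the highest of the 13 groups, and all 3 samples lay above those of the group next in order, culture day 14.

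Cdkn1a and Mdm2 were higher at 14.5 than at 7.5 dpp by 0.75 ± 0.22 and 0.76 ± 0.29 (adjusted p = 0.0109 and 0.0426), and Phlda3 and Bbc3 differed by -0.97 ± 0.31 and -0.80 ± 0.29 (adjusted p = 0.0158 and 0.0322), all without overlap of samples and all less than 2-fold. With Sesn2 these are the 5 of 7 members that passed with no minimum fold, where 31.3% of all genes did. The meiotic marker sum was 23100 to 35450 at 14.5 dpp, against 423 to 1605 at 7.5 dpp, with Sycp1, Meiob, Pgk2 and Ccna1 detected on no array of the younger group. Its part in these differences was not tested.

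Between 14.5 and 21.5 dpp, when round spermatids appear in the mouse, 2 members were called lower and none higher, against 20.2% of all genes lower and 15.8% higher. Higher genes made up 44.0% of these calls, against 50.8% after median centring and 59.3% in the authors' log2 values, and the median difference of all genes was -0.34. Ccng1 fell by 1.28 ± 0.28, or 2.43-fold (adjusted p = 0.000217), and Phlda3 fell by 1.25 ± 0.31, or 2.38-fold (adjusted p = 0.000807). The Phlda3 difference was -0.54 in the authors' log2 values and -0.92 without background correction (adjusted p = 0.026 and 0.00366). Bbc3 differed by -0.88 ± 0.29, Sesn2 by -0.83 ± 0.26 and Trp53inp1 by -0.70 ± 0.17 (adjusted p = 0.00888, 0.00706 and 0.000679), which makes 5 of 7 with no minimum fold, where 62.2% of all genes passed. Cdkn1a and Mdm2 did not pass the test, with differences of 0.07 ± 0.22 and 0.04 ± 0.29 (adjusted p = 0.797 and 0.911). At 21.5 dpp the Sertoli cell marker sum was 15054 to 23531, against 36845 to 44035 at 14.5 dpp. The 5 measured peritubular markers summed to 9579 to 15057, against 28051 to 30719. For spermatid markers the sum was 11778 to 19999, against 297 to 328. The part of these cells in the differences was not tested.

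The 3 members called higher in culture at 21.5 dpp are therefore among the 5 that were lower in vivo at 21.5 than at 14.5 dpp, and these comparisons share the in vivo samples of 21.5 dpp. In culture day 14 the meiotic markers summed to 32329 to 43619 and the Sertoli cell markers to 41252 to 44652, against 72450 to 73778 and 15054 to 23531 in vivo at 21.5 dpp. The macrophage markers summed to 17329 to 21807 in culture day 14, against 2935 to 3945 in vivo, and the Leydig cell markers to 1085 to 1235, against 11495 to 11845. The part of this difference in cells was not tested.

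Against the testis at the start of the culture, 1 member was called on day 7 and 1 on day 14. On day 2 none was called, where 4.81% of all genes were called higher and 4.3% lower; Cdkn1a was at 0.83 ± 0.22 above the start and Ccng1 at -0.87 ± 0.28 (adjusted p = 0.0074 and 0.025). On day 7 Cdkn1a rose, with 8.88, 8.78 and 8.66, against 7.37, 7.67 and 7.64 at 7.5 dpp, a difference of 1.21 ± 0.22, or 2.32-fold (adjusted p = 0.000205). Over all genes 4.41% were called higher and 4.25% lower on day 7. Higher genes were 50.9% of those calls and 13% with median centring, which also brought Cdkn1a to 0.73 (adjusted p = 0.0258), below 2-fold. The authors' log2 values gave 0.73 as well (adjusted p = 0.000211), and the other probes of Cdkn1a gave 0.98 and 0.97. The endothelial marker sum was 5506 to 7997 on day 7, against 2170 to 2241 at the start. The meiotic marker sum was 2904 to 7857, against 423 to 1605, and the Leydig cell sum 765 to 1384, against 6928 to 8691. The part of these cells in the difference was not tested.

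On day 14 Sesn2 rose, with 9.07, 9.04 and 8.91, against 7.31, 7.99 and 7.82 at the start, a difference of 1.30 ± 0.26, or 2.46-fold (adjusted p = 0.000265). It was 0.82 in the authors' log2 values and 0.98 with the second probe of Sesn2 (adjusted p = 0.00048 and 0.00451). The macrophage marker sum was 17329 to 21807 on day 14, against 2190 to 2452 at the start. The meiotic marker sum was 32329 to 43619, against 423 to 1605, and the Leydig cell sum 1085 to 1235, against 6928 to 8691. The part of these cells in the difference was not tested. Over all genes 8.6% were called higher and 7.73% lower on that day, with 52.6% of the calls higher, against 65.8% after median centring and 63.2% in the authors' log2 values. Mdm2 and Cdkn1a differed from the start by 0.76 ± 0.29 and 0.59 ± 0.22 and Phlda3 by -0.86 ± 0.31 (adjusted p = 0.0391, 0.0386 and 0.0298), below 2-fold. With no minimum fold, 2 of the 7 members passed on day 2, 2 on day 7 and 4 on day 14, where 20.8%, 24.3% and 34.6% of all genes did. Sesn2 had 1.49 and Phlda3 -0.97 in vivo at 14.5 dpp against the same samples of 7.5 dpp.

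Several members had more than 1 kept probe, and the probes did not always give the same picture. With p-values adjusted over the 23665 kept probes, all 3 probes of Ccng1 were called higher in culture at 21.5 dpp, by 1.53, 1.43 ± 0.30 and 1.81 ± 0.25, and all 3 were called lower in vivo at 21.5 than at 14.5 dpp. A lower level in early culture was called with 2 of them: ILMN_2702233 differed by -1.99 ± 0.30 at 9.5 dpp and -1.62 ± 0.30 at 11.5 dpp (adjusted p = 2.33e-05 and 0.000354). The third, ILMN_2500276, was higher in culture at 6 of 6 ages, by 0.38 ± 0.25, 0.66 ± 0.25, 0.72 ± 0.28, 1.47 ± 0.25, 1.08 ± 0.25 and 1.81 ± 0.25 in order of age, and was called at the last 3. Over the 13 group means its correlation with the brightest probe was 0.27, against 0.96 for ILMN_2702233. All 3 probes were detected on all 38 arrays, and which transcripts each one reports was not tested.

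Cdkn1a had a second probe, ILMN_2846775, that was called higher in culture at 9.5 dpp, by 1.18 ± 0.25 (adjusted p = 0.00103), and above the start on day 2, by 1.26 ± 0.25 (adjusted p = 0.000495). Its mean difference over the 6 ages was 0.72 ± 0.10 (adjusted p = 8.91e-07), where the brightest probe gave 0.13 and ILMN_2846776 gave 0.12 ± 0.09. Its correlation with the brightest probe was 0.40, against 0.81 for ILMN_2846776. A second probe of Bbc3, detected on 25 of 38 arrays, gave 0.13 ± 0.22 at 14.5 dpp and -0.10 ± 0.22 at 21.5 dpp (adjusted p = 0.707 and 0.728), so the Bbc3 result rests on the brightest probe.

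The second probe of Phlda3 gave 0.11 ± 0.23 at 14.5 dpp and 0.90 ± 0.23 at 21.5 dpp (adjusted p = 0.764 and 0.00155). That of Trp53inp1 was called lower in culture at 9.5 dpp, by -1.10 ± 0.19 (adjusted p = 9.87e-05), and gave 0.81 ± 0.19 at 21.5 dpp, so that the change of the difference between these ages was 1.91 ± 0.27 and called (adjusted p = 8.95e-07), where the brightest probe gave 0.81. The second probes of Mdm2 and Sesn2 had correlations of 0.93 and 0.92 with the brightest probe, and gave no call at a matched age. The second probe of Mdm2 was called in the change of the difference between 9.5 and 21.5 dpp, at -1.22 ± 0.39 (adjusted p = 0.0107), where the brightest probe gave -0.72.

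**Figure D4:**
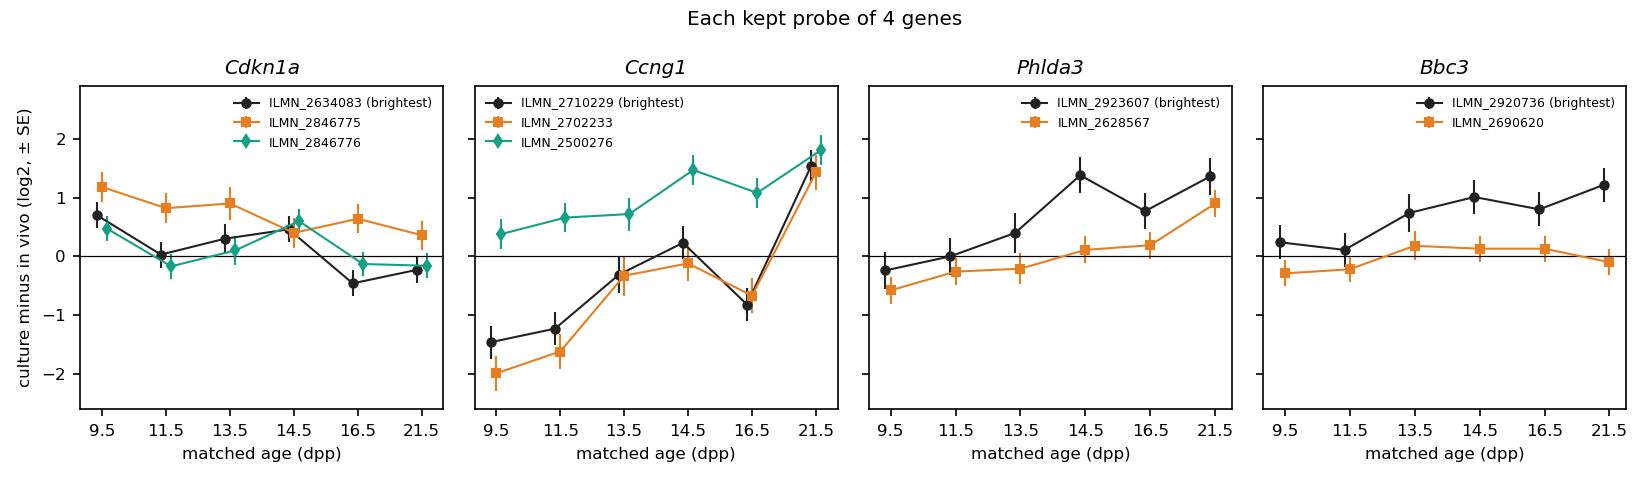
Difference between organ culture and in vivo in log2 units (y axis, bars are standard errors) at the 6 matched ages in days post partum (x axis) for each kept probe of Cdkn1a, Ccng1, Phlda3 and Bbc3. The probe ILMN_2500276 of Ccng1 lies above 0 at all 6 ages, whereas the other 2 probes lie below -1 at 9.5 and 11.5 dpp; all 3 lie above 1 at 21.5 dpp.

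Of 25 other p53 target genes, 22 were measured. In culture they were called higher and lower in 1 and 0 cases at 9.5 dpp, 2 and 0 at 11.5 dpp, 3 and 1 at 13.5 dpp, 1 and 0 at 14.5 dpp, 4 and 2 at 16.5 dpp and 6 and 0 at 21.5 dpp. Their median difference at 21.5 dpp was 0.67, where that of all genes was 0.25, and at the first 5 ages it lay between -0.08 and 0.22. Over all genes 4.64%, 3.91%, 4.03%, 5.52%, 5.16% and 19.9% were called higher at the 6 ages in order. Called lower were 3.94%, 3.95%, 2.66%, 5.71%, 3.15% and 15.9%. Fas, the death receptor, was called higher at 5 of the 6 ages, by 1.70 ± 0.34 at 9.5 dpp (adjusted p = 0.000539), 1.02 at 11.5 dpp, 1.18 at 13.5 dpp, 1.27 at 16.5 dpp and 1.43 at 21.5 dpp. On day 2 it was 2.29 ± 0.34, or 4.89-fold, above the start of the culture (adjusted p = 1.07e-05). It was the single other target called in the mean over ages, at 1.21 ± 0.14 (adjusted p = 1.81e-08).

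Gadd45a, a stress sensor that binds PCNA, was called higher in culture at 14.5 dpp by 1.07 ± 0.20 and at 21.5 dpp by 1.94 ± 0.20 (adjusted p = 0.000274 and 1.48e-09). Plk2 and Plk3, polo-like kinases of the stress response, were called higher at 13.5 dpp by 1.24 ± 0.28 and 1.21 ± 0.26 (adjusted p = 0.00269 and 0.00211). Apaf1, the core of the apoptosome, was called higher at 21.5 dpp by 1.52 ± 0.20 (adjusted p = 1.85e-07). Pmaip1, which encodes NOXA, a BH3-only protein like PUMA, differed from Bbc3: at 16.5 dpp it was at least 2.25-fold lower in culture, where it was not detected on any array (difference -1.34, adjusted p = 0.000156).

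Between 14.5 and 21.5 dpp in vivo, 20.2% of all genes were called lower and 15.8% higher. Of the 22 other targets, 9 fell and none rose, with a list median of -0.92 where all genes had -0.34. The largest were Rrm2b, a ribonucleotide reductase subunit, at -1.52 ± 0.22, Apaf1 at -1.38 ± 0.20 and Sesn1, the paralogue of Sesn2, at -1.36 ± 0.16 (adjusted p = 8.75e-07, 8.51e-07 and 1.26e-08). Sertoli, peritubular and spermatid marker sums also differed between these ages, and the part of those cells was not tested.

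**Figure D5:**
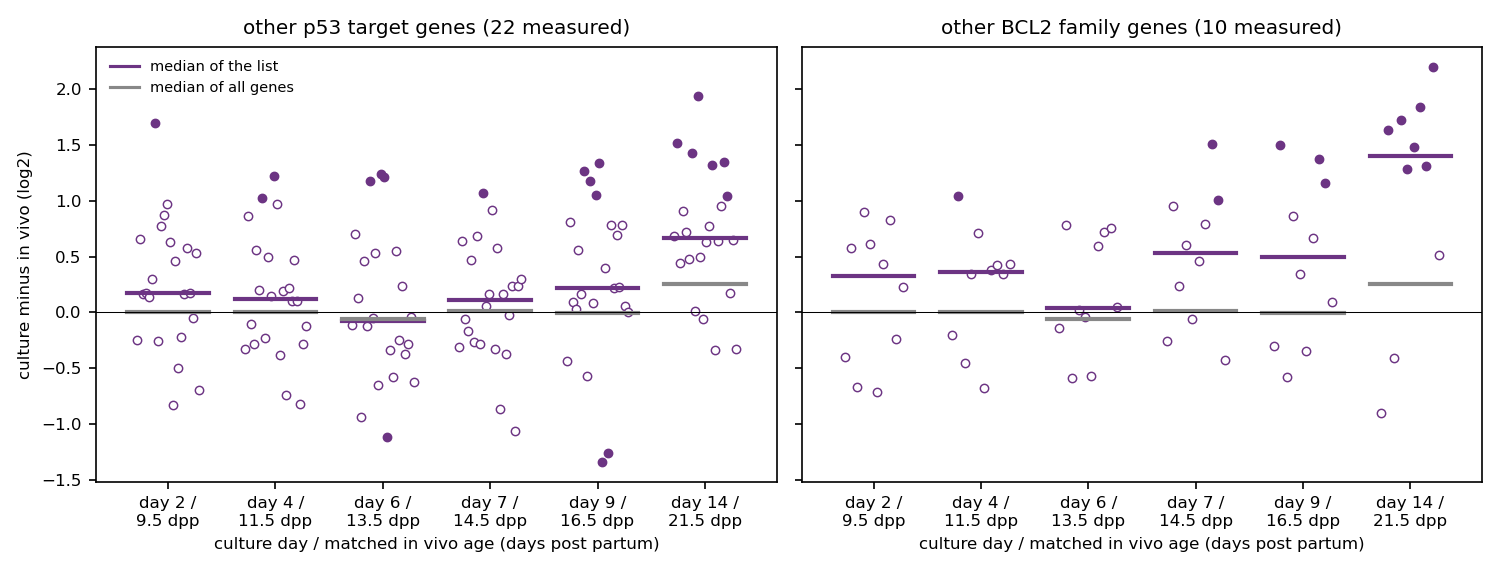
Difference between organ culture and in vivo in log2 units (y axis) at the 6 matched ages (x axis) for each measured gene of 2 lists, other p53 targets and other BCL2 family genes. Filled points were called; the purple bar is the list's median and the grey bar the median of all genes, which are 0.67 and 0.25 for the p53 targets at 21.5 dpp.

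The transcript of p53 itself is not analysed here, since no probe carried the symbol Trp53. Of its family and regulators, 14 of 16 genes were measured. Mdm4, which encodes an inhibitor of p53 related to MDM2, was lower in culture at 21.5 dpp by -1.83 ± 0.33 (adjusted p = 1.91e-05) and higher in vivo at 21.5 than at 14.5 dpp by 1.66 ± 0.33 (adjusted p = 6.53e-05), where Mdm2 had -0.04 and 0.04. Trp63, the relative of p53 that guards oocytes, was called higher in culture at 9.5 dpp by 1.21 ± 0.27 and lower at 14.5 dpp by -1.71 ± 0.27 (adjusted p = 0.00142 and 3.27e-05). The lower mean of each pair was dim, 5.80 in vivo at 9.5 dpp and 5.51 in culture day 7. A Bbc3 value of 5.53 was already close to the detection limit. The in vivo 9.5 dpp group also holds the array with the lowest detected share. Atm, the kinase that signals double-strand breaks to p53, was called higher in culture at 21.5 dpp by 1.64 ± 0.32 (adjusted p = 6.74e-05) and at 9.5 dpp by 1.00 ± 0.32 (adjusted p = 0.0235), in the second case with overlapping samples.

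Among 5 other CDK inhibitors, all measured, Cdkn1b (p27) was called higher in culture at 9.5, 13.5 and 16.5 dpp, by 1.06 ± 0.17, 1.27 ± 0.19 and 1.09 ± 0.17 (adjusted p = 3.47e-05, 1.67e-05 and 2.23e-05). The brightest probe of Cdkn1a had 0.70, 0.30 and -0.46 at these ages (adjusted p = 0.0231, 0.488 and 0.145) and was not called. Its probe ILMN_2846775 was called at 9.5 dpp, by 1.18 (adjusted p = 0.00103). At 21.5 dpp Cdkn1c (p57) was called higher by 1.28 ± 0.20 and Cdkn2c (p18) lower by -1.45 ± 0.28 (adjusted p = 2.35e-06 and 4.99e-05). Of 16 mitotic cell cycle genes 11 were measured. On day 2 of culture Cdk1 and Pcna were called lower than in vivo at 9.5 dpp, by -1.33 ± 0.24 and -1.23 ± 0.29 (adjusted p = 0.000177 and 0.00275), where 3.94% of all genes were called lower. No gene of the list was called at 11.5, 13.5, 14.5 or 16.5 dpp. Over all genes 3.91%, 4.03%, 5.52% and 5.16% were called higher at these ages, and 3.95%, 2.66%, 5.71% and 3.15% lower. With so few calls over all genes, their absence among 11 genes is not read as a trait of the list.

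Of 13 other genes of the BCL2 family 10 were measured. In culture 1 was called higher at 11.5 dpp, 2 were called higher at 14.5 dpp, 3 at 16.5 dpp and 7 at 21.5 dpp, and none was called lower at any of the 6 ages. Their median difference at 21.5 dpp was 1.40, where that of all genes was 0.25. At 11.5, 14.5, 16.5 and 21.5 dpp, 3.91%, 5.52%, 5.16% and 19.9% of all genes were called higher. Called lower were 3.95%, 5.71%, 3.15% and 15.9%. Bmf, another BH3-only gene, was higher at 14.5 dpp by 1.51 ± 0.21 and at 16.5 dpp by 1.37 ± 0.21 (adjusted p = 4.39e-06 and 1.77e-05). At 21.5 dpp Bok, Bik and Bcl2l11, which promote cell death, were higher by 2.20 ± 0.29, 1.84 ± 0.28 and 1.72 ± 0.20 (adjusted p = 1.96e-07, 1.77e-06 and 2.3e-08). The list does not run only towards death: Bcl2, which protects from it, was higher in culture at 16.5 dpp by 1.5 ± 0.23 and on average over the ages by 1.08 ± 0.10 (adjusted p = 2.51e-05 and 8.69e-11).

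Sesn2 is also a target of ATF4, so 13 genes of the ATF4 and CHOP stress response were set beside it, and all were measured. Chac1, a glutathione-degrading enzyme induced by this response, was called higher in culture at 9.5 dpp by 1.41 ± 0.38 and at 14.5 dpp by 1.46 ± 0.38, and lower at 21.5 dpp by -2.15 ± 0.38 (adjusted p = 0.00706, 0.00465 and 1.48e-05). Phgdh, the first enzyme of serine synthesis, was called lower at 9.5 and 11.5 dpp by -1.71 ± 0.51 and -2.02 ± 0.51 (adjusted p = 0.0148 and 0.0053). At 21.5 dpp 6 genes of the list were called higher and 3 lower, where 19.9% of all genes were called higher and 15.9% lower. Sesn2 was not called at any of these ages.

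By the correlation of group means over the 13 groups, the genes whose pattern was most like that of Cdkn1a were Brf2, Zbtb17, Osgin1, Arfgef3 and Dusp13, at 0.873, 0.808, 0.794, 0.785 and 0.767. Those most like Mdm2 were Lamp1, Aftph, Cep43, Cand1 and Mtbp, at 0.956, 0.955, 0.928, 0.917 and 0.913. None of the 10 is a member. They were the best of all genes measured on the same arrays, and the values describe likeness only.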

How the data were processed

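The authors' deposited tables hold a signal intensity and a detection p-value per probe for each array, not normalized, and a second table of log2 values for 39 samples, which the submitters' processing notes link to lumi. Of the intensity columns, 1 could not be matched to a sample by its name and was not used, which leaves 38 arrays. Intensities were background corrected with neqc in limma 3.58.1 (R 4.3.3; offset 16, control statistics inferred from the detection p-values), log2 transformed and quantile normalized. Of 45281 probes, 23665 had a detection p below 0.01 on 3 or more arrays, and 19924 of these carried 1 symbol in the platform annotation, which can be old. The brightest kept probe stood for a gene; 4961 of 12518 genes had several. A limma fit with 1 mean per group (25 residual degrees of freedom, empirical Bayes with a trend) gave 13 comparisons, with Benjamini-Hochberg adjustment over all genes. The fit was also run on simulated data.

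The members and gene lists were chosen with earlier results of these data known, so lists are described by counts and medians. Every measured member is named; of other lists, at most 3 called genes with the largest difference per comparison, plus Mdm4 and Trp63. Fas at every age and Gadd45a were followed beyond that rule, after their values had been seen. The precision is limited by the 2 or 3 arrays per group. The offset compresses the differences of dim probes, but less than leaving out background correction did for Bbc3. At 21.5 dpp Bbc3 differed by 1.22 in the main fit, 0.78 without background correction and 0.38 in the authors' log2 values. Replicate numbers did not pair the samples: in 2 of 17 pairs the deviations correlated above 0.1. Alternatives were median centring, no background correction, the authors' log2 values, 2 other filters, the mean of all kept probes, only the arrays compared, a replicate block, no minimum fold and leaving out each array.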

Additional observations from a re-analysis of the deposited data

Results flagged for a closer look

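The culture difference at 21.5 dpp differed from that at 9.5 dpp, by the test of that difference in the limma fit, for 5 of the 7 measured members at an adjusted p below 0.05 with no minimum fold, a rule that 50.9% of all genes met. Ccng1 had 2.99 ± 0.39 (adjusted p = 3.37e-07) with its brightest probe, the sum of a level 1.46 lower at the first age and 1.53 higher at the last. Its other probes gave 3.43 ± 0.43 (ILMN_2702233) and 1.43 ± 0.35 (ILMN_2500276). ILMN_2500276 was not lower in culture at the first age, with 0.38 ± 0.25. Phlda3 had 1.61 ± 0.43 (adjusted p = 0.00297). Bbc3 had 0.98 ± 0.40 and Trp53inp1 0.81 ± 0.24 (adjusted p = 0.0426 and 0.0059). Cdkn1a had -0.93 ± 0.32 (adjusted p = 0.0158). No explanation of these differences was tested.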

How the results depend on the processing

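No alternative that kept the brightest probe turned the sign of a called difference of a member. The number of members called moved by more than 1.5 times as follows. With no minimum fold it was 2 at 9.5, 11.5 and 16.5 dpp, on day 2 and on day 7 against the start, 4 in the mean over ages and on day 14 against the start, and 5 at 21.5 dpp, in both in vivo comparisons and in the change of the difference between 9.5 and 21.5 dpp. With the mean of all kept probes it was 0 at 11.5 and 14.5 dpp. With median centring it was 1 at 14.5 dpp, where Phlda3 and Bbc3 were no longer called and Sesn2 was called lower in culture (-1.0), 0 on day 7 against the start and 2 for in vivo 14.5 against 7.5 dpp. Without background correction it was 1 at 14.5 dpp and 1 for in vivo 21.5 against 14.5 dpp. With the authors' log2 values, whose differences are smaller, it was 0 at 14.5 dpp, on days 7 and 14 against the start and for in vivo 14.5 against 7.5 dpp, and 1 at 21.5 dpp, for in vivo 21.5 against 14.5 dpp and for the change of the difference. Leaving out 1 array at a time gave 0 to 2 at 11.5 dpp, 1 to 2 at 14.5 dpp, 0 to 1 at 16.5 dpp and on day 2 against the start, 1 to 2 on day 7 against the start and for in vivo 14.5 against 7.5 dpp, 2 to 3 for in vivo 21.5 against 14.5 dpp, 2 to 4 for the change of the difference, and no other count in the remaining comparisons: 1 at 9.5 dpp, 0 at 13.5 dpp, 3 at 21.5 dpp, 0 in the mean over ages and 1 on day 14 against the start. Against the start, Cdkn1a reached 1.03 on day 2 without replicate 2 of culture day 2, Ccng1 -1.09 without replicate 1 of culture day 2 and -1.20 without replicate 1 of 7.5 dpp, and Sesn2 1.25 on day 7 without replicate 2 of culture day 7. Phlda3 reached 1.01 at 16.5 dpp without replicate 2 of culture day 9. The replicate block, which uses the shared numbers of the labels as a factor, moved no count of members, with 1, 1, 0, 2, 0 and 3 called at the 6 matched ages. Other probes of a gene, an alternative chosen after seeing the data, turned the sign of 5 results that were called with the brightest probe or with the other one, beside differences called with neither: with ILMN_2500276 Ccng1 had 0.38 at 9.5 dpp, 0.66 at 11.5 dpp, 1.08 at 16.5 dpp and 1.02 in the mean over ages, and with ILMN_2690620 Bbc3 had -0.10 at 21.5 dpp; the cause was not tested. Over all genes the calls at the 6 matched ages, 837 to 4480, were 190 to 2104 with the authors' values, 436 to 3312 without background correction and 1616 to 7558 with no minimum fold. At 9.5 and 16.5 dpp, 1074 and 1040 calls became 410 and 532 with only the arrays compared, and at 13.5 dpp 837 became 1297 with median centring.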

Other observations

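Other p53 targets and BCL2 family genes were also set against the start of the culture at 7.5 dpp. On day 2, 3 of the 22 measured other p53 targets were called higher and 2 lower, where 4.81% of all genes were called higher and 4.3% lower. Gadd45a was 1.23 ± 0.20 above the start (limma adjusted p = 3.89e-05), and Pmaip1 was at least 1.48-fold lower on day 2, where no array detected it. Of the 10 measured BCL2 family genes, 3 were called higher on day 2: Bik by 1.14 ± 0.28, Bcl2l11 by 1.08 ± 0.20 and Bmf by 1.07 ± 0.21 (adjusted p = 0.00358, 0.000252 and 0.00031). On day 7 Bik and Bcl2l11 were called higher, by 1.45 ± 0.28 and 1.18 ± 0.20, and Bok lower, by -1.13 ± 0.29 (adjusted p = 0.000354, 8.61e-05 and 0.00507).

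In vivo at 14.5 against 7.5 dpp, Bok differed by -2.14 ± 0.29 and Bcl2 by -1.47 ± 0.23 (adjusted p = 2.63e-06 and 1.74e-05). Of the kinases that act on p53, Atr was at least 2.12-fold higher at 14.5 dpp, with no array detecting it at 7.5 dpp, and Chek1 was at least 1.22-fold lower, with no array detecting it at 14.5 dpp and 1 of 3 at 7.5 dpp. Higher Atr and lower Chek1 were also called on day 7 of culture against the start, at least 1.53-fold higher and at least 1.13-fold lower. The cell cycle kinase gene Aurkb differed by -1.23 ± 0.25 in vivo at 14.5 dpp and by -1.22 ± 0.25 on day 7 of culture, both against 7.5 dpp (adjusted p = 0.000309 and 0.000541); these comparisons share the samples of 7.5 dpp.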
